A study of Mus musculus with 48 samples.

Results

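The genes described here encode the enzymes of the tricarboxylic acid (TCA) cycle, the pyruvate dehydrogenase (PDH) complex with its kinases and phosphatases, and the 2 shuttles that carry reducing equivalents from the cytosol to mitochondria. They are 34 genes, found by symbol among the 56748 Ensembl identifiers of the count files, and all 34 passed the filter on low counts in every fit. RNA was sequenced from 3 tissues of male littermate mice: the liver, brown fat (brown adipose tissue, BAT) and the white fat beside the epididymis (eWAT). Mice labelled hepAGT-/-, here KO, carried a deletion of hepatocyte angiotensinogen (Agt), and those labelled hepAGT+/+, here WT, did not. Every mouse, controls included, was fed for 12 weeks on a Western diet, which held 0.2% cholesterol and 21% milk fat, so no group shows the genes on another diet. Cages stood either at 20 to 22 °C, called room temperature (RT), or at the thermoneutral 30 °C (TN), where a mouse needs little extra heat. The 48 libraries form 12 groups of 4. The driver of the deletion and the mice's strain and age are not given in the sources used here. The labels call the libraries of a group biological replicates. The p-values weigh a difference against the spread between libraries within groups, estimated over all groups of a fit.

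PDH turns pyruvate into acetyl-CoA inside mitochondria and thereby links glycolysis to the TCA cycle, which oxidises acetyl units and hands electrons to the respiratory chain. PDH kinases phosphorylate and silence the complex, and PDH phosphatases switch it on again. In liver the cycle also supplies carbon for gluconeogenesis and works beside the aspartate aminotransferases, in white fat citrate leaves it for fatty acid synthesis, and in brown fat it feeds the respiration that makes heat.

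Levels are counts-per-million values (CPM), with library totals scaled by edgeR's TMM method (trimmed mean of M values) over all 48 libraries. Changes are log2 fold changes with standard errors (SE) from edgeR's quasi-likelihood test, and a gene was called when its Benjamini-Hochberg adjusted p, taken over every gene in the fit, was under 0.05. Total counts per library ran from 23711728 to 36503849 in liver, from 25304872 to 39383039 in BAT and from 28656921 to 43687848 in eWAT. Agt itself was checked before the other genes: liver libraries labelled KO held 141 to 235 CPM and those labelled WT 308 to 570 CPM, a log2 change of -1.14 (SE 0.18, edgeR adjusted p = 0.0096) at RT and -1.29 (SE 0.18, adjusted p = 0.00113) at TN. The transcript was thus lower but still present in every KO liver library, at group means of 188 CPM at RT and 190 CPM at TN against 413 and 464 CPM in WT. A summed level of 6 hepatocyte markers ran from 53250 to 92339 CPM of plain totals in liver, where 6 adipocyte markers summed to at most 174 CPM. The adipocyte markers summed to 13350 to 17081 CPM in eWAT, and 5 brown adipocyte markers to 2269 to 10869 CPM in BAT. Skeletal muscle markers (7 genes) summed to 944 to 8001 CPM in 6 BAT libraries (KO RT 14 and 19, KO TN 2 and 5, WT TN 24 and 6) and to at most 366 CPM in the other 10. Epididymis markers (7 genes) reached 232 CPM in eWAT WT RT 18 and at most 16.2 CPM in the other eWAT libraries. Hepatocyte markers were present in every eWAT library, at 646 to 6753 CPM. Lymph node and B cell markers (5 genes) summed to 209 to 655 CPM in eWAT and to at most 38 CPM elsewhere. Endothelial markers (3 genes) summed to 106 to 377 CPM in BAT of WT mice at RT and to 220 to 890 CPM in the other BAT groups, to 142 to 478 CPM in eWAT and to 55.4 to 125 CPM in liver. In bulk tissue, fewer cells of a type and less RNA per cell cannot be told apart.

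The 34 genes were most abundant in brown fat. They took 3.22% of all counts in the median BAT library, 0.667% in eWAT and 0.631% in liver. In WT mice at RT the median over the members' group means was 1310 CPM in BAT, 190 in liver and 121 in eWAT. With plain library totals these medians were 1006, 163 and 141 CPM, so the gap between liver and eWAT depended on the scaling. Per kilobase of exon, which allows genes to be compared with each other, the cytosolic glycerol-3-phosphate dehydrogenase Gpd1 stood highest in BAT (2973 CPM per kb) and in eWAT (285 CPM per kb), and the cytosolic malate dehydrogenase Mdh1 in liver (285 CPM per kb). The succinate dehydrogenase genes Sdhd and Sdha followed Gpd1 in BAT, at 850 and 809 CPM per kb. At the other end, the kinase Pdk3 and the phosphatase Pdp1 were lowest in liver, at 0.228 and 0.233 CPM per kb, and in BAT, at 0.589 and 1.54 CPM per kb. In eWAT the 3 lowest genes per kilobase were Pdp1, Pdk1 and Got1, at 2.66, 3.13 and 3.20 CPM per kb.

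**Figure D1:**
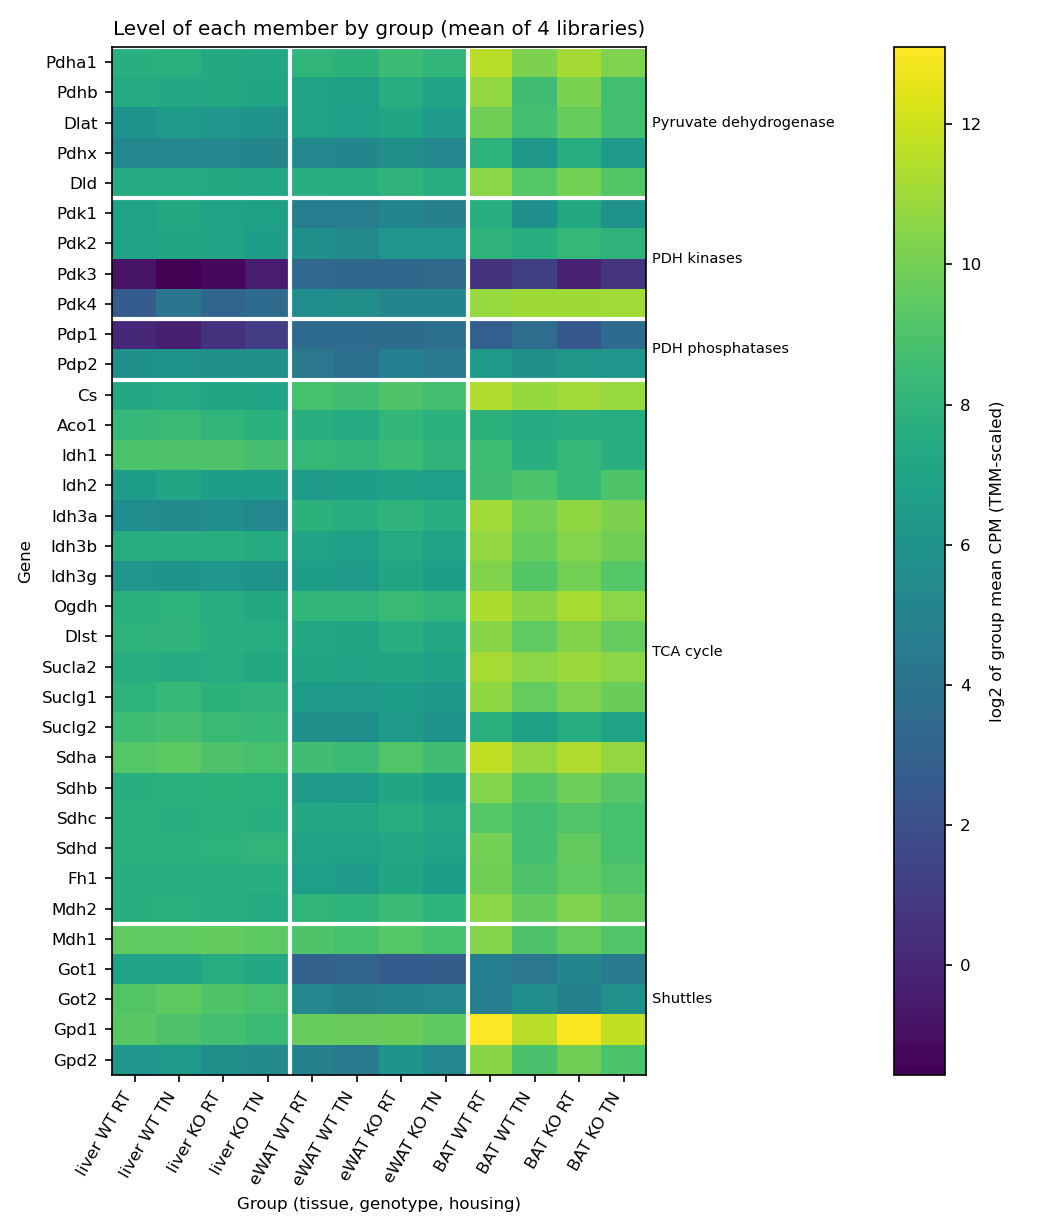
Colour gives the log2 of the mean CPM (TMM-scaled over 48 libraries) of each of the 34 genes (rows, by role) in each of the 12 groups of 4 libraries (columns). BAT columns are brightest for most rows, while Got1, Got2 and Suclg2 are brightest in liver and Pdk3 and Pdp1 are darkest there.

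Of the 34 genes, Pdk3, the aspartate aminotransferase genes Got1 and Got2, and Pdp1 had the largest log2 differences between liver and epididymal fat in WT mice at RT. In WT mice at RT, 27 of the 34 genes were called, 20 higher and 7 lower in liver, against 54.1% of all 21910 genes, and the median log2 difference (liver minus eWAT) was 0.60 for the members and -0.064 for all genes. At TN, 28 were called in WT (21 higher, 7 lower), against 54.1% of all genes. In KO mice, 26 were called at RT (14 higher, 12 lower) against 53.7%, and 27 at TN (16 higher, 11 lower) against 51.3%. The 4 shares for the members, 26 to 28 of 34, lie above the background, but the direction of the smaller differences depended on the scaling. With plain library totals, where the median of all genes moved from -0.064 to -0.615 in WT at RT, the splits were 11 higher and 13 lower (WT RT), 16 and 13 (WT TN), 6 and 19 (KO RT) and 10 and 15 (KO TN). Of the called members, Sdhc, Sucla2, Idh2, Mdh1 and Dlst changed sign between these scalings in at least 1 of the 4 comparisons.

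Got2, the mitochondrial aspartate aminotransferase, and Got1, its cytosolic partner, exchange aspartate and glutamate in the malate-aspartate shuttle. Got2 was measured at 552, 580, 604 and 621 CPM in liver of WT mice at RT and at 25.9, 31.8, 39.3 and 56 CPM in their eWAT. The lowest liver library was thus far above the highest eWAT library, and the log2 difference was 4.05 (SE 0.25, edgeR adjusted p = 6.05e-18). Got1 was measured at 89.8, 113, 144 and 157 CPM in liver and at 5.86, 6.13, 9.93 and 10.6 CPM in eWAT of these groups, again without overlap. Its log2 difference was 4.05 (SE 0.37, adjusted p = 4.55e-12). Over the 4 combinations of genotype and housing, the difference ran from 3.91 to 4.90 for Got1 and from 3.68 to 4.67 for Got2, and with plain totals it was at least 3.19 for both. In eWAT of KO mice at RT, replicate 16 had the highest Got1 (10 CPM) and Got2 (51.5 CPM) of its group and also the highest hepatocyte marker sum of all eWAT libraries (6753 CPM). The part of hepatocyte transcripts in the eWAT values was not tested.

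The 4 PDH kinases split by tissue. Pdk1 was measured at 90.3, 112, 117 and 173 CPM in liver and at 23.3, 23.5, 24.8 and 25.7 CPM in eWAT of WT mice at RT, a log2 difference of 2.44 (SE 0.18, edgeR adjusted p = 1.70e-15). Pdk2, the kinase common to most tissues, was also higher in liver, by 1.32 (SE 0.16, adjusted p = 3.25e-09). Pdk4, the kinase induced by fasting and fatty acids, went the other way: it was at 2.17, 6.81, 7.05 and 10.3 CPM in liver and at 35.5, 42.5, 56.1 and 56.6 CPM in eWAT. The liver values lay wholly below the eWAT values, with a log2 difference of -2.76 (SE 0.46, adjusted p = 2.76e-06) in WT at RT and of -1.42 to -1.80 in the other 3 combinations. Pdk3 was near the detection limit in liver, at 0 to 1.13 CPM against 9.79 to 12.1 CPM in eWAT of WT mice at RT. Its log2 difference was -4.07 (SE 0.70, adjusted p = 3.67e-06). The phosphatases split in the same way, Pdp1 at 0 to 1.68 CPM in liver against 8.79 to 16.3 CPM in eWAT (-3.39, SE 0.57, adjusted p = 2.81e-06) and Pdp2 at 46.8 to 60.7 against 16.3 to 21 CPM (1.63, SE 0.26, adjusted p = 1.08e-06). These 6 regulators kept their direction with plain totals in all 4 combinations, although Pdk2 in KO mice at TN (0.13, adjusted p = 0.552) and Pdp2 in KO mice at RT (0.53, adjusted p = 0.0534) then missed the threshold.

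The PDH complex itself differed less. Pdha1, which encodes the catalytic alpha subunit of its pyruvate decarboxylase, was measured at 177, 210, 211 and 213 CPM in liver and at 253, 257, 263 and 265 CPM in eWAT of WT mice at RT. The groups did not overlap, but the log2 difference of -0.26 did not pass the test (SE 0.15, edgeR adjusted p = 0.153). In KO mice at RT the values were 139, 158, 171 and 182 CPM in liver and 320, 339, 364 and 397 CPM in eWAT, and the difference of -1.03 passed (SE 0.15, adjusted p = 2.25e-07). At TN it was 0.04 (adjusted p = 0.855) in WT and -0.83 (SE 0.15, adjusted p = 1.12e-05) in KO mice. With plain totals the WT difference was called as well, at -0.81 (adjusted p = 8.98e-06) at RT and -0.52 (adjusted p = 0.0023) at TN. The beta subunit gene Pdhb was higher in liver of WT mice at RT by 0.64 (SE 0.19, adjusted p = 0.00391), but not with plain totals (0.09, adjusted p = 0.688), while the log2 difference of the core acetyltransferase gene Dlat was -0.91 (SE 0.17, adjusted p = 1.91e-05).

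**Figure D2:**
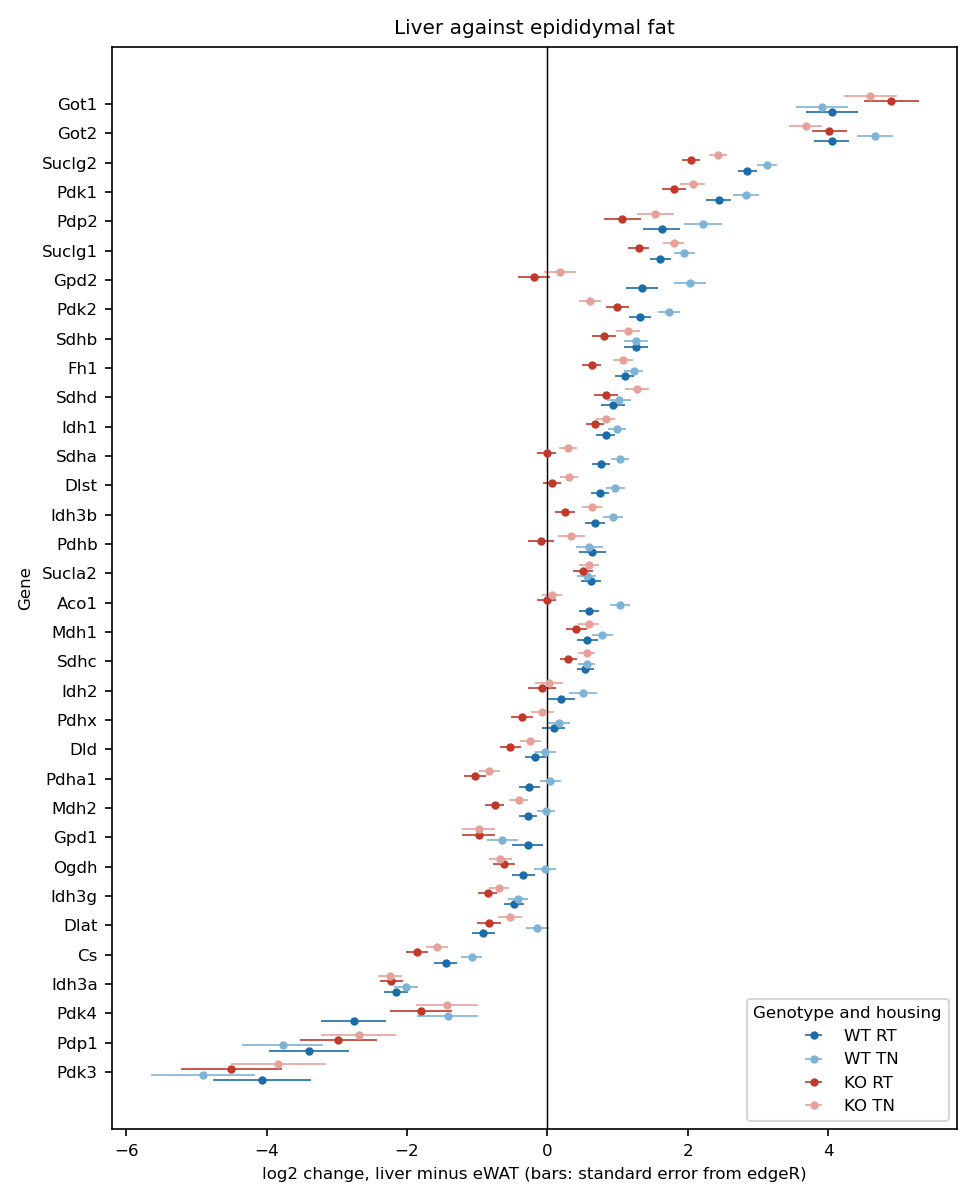
Each point is the log2 change of a gene, liver minus eWAT, for 1 combination of genotype and housing (colour), with its standard error from edgeR as the bar. Got1 and Got2 lie between 3.68 and 4.90, Pdk3 and Pdp1 between -4.91 and -2.69, and the KO points of Gpd2, Pdha1, Aco1 and Sdha lie to the left of the WT points.

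Within the TCA cycle, Cs and Idh3a were lower in liver, and Suclg1, Suclg2, Sdhb and Fh1 were higher. Cs, the citrate synthase that opens the cycle, was measured at 121, 159, 171 and 172 CPM in liver and at 422, 425, 457 and 514 CPM in eWAT of WT mice at RT. All liver values lay below all eWAT values, with a log2 difference of -1.45 (SE 0.16, edgeR adjusted p = 1.12e-10). Idh3a, the catalytic subunit gene of the NAD-dependent isocitrate dehydrogenase, was at 40.8 to 56.5 CPM in liver and 222 to 238 CPM in eWAT (-2.16, SE 0.17, adjusted p = 2.85e-14). Of its 2 partner subunits, Idh3g had a log2 difference of -0.47 (SE 0.14, adjusted p = 0.00522) and Idh3b of 0.68 (SE 0.14, adjusted p = 7.38e-05), the latter not called with plain totals (0.13, adjusted p = 0.425). Idh1, the cytosolic NADP-dependent enzyme, was at 465, 484, 487 and 535 CPM in liver and at 255, 289, 309 and 337 CPM in eWAT, and was called higher in liver in all 4 combinations (0.68 to 0.99), in 2 of them with plain totals too (0.43 in WT and 0.34 in KO at TN). Idh2, its mitochondrial counterpart, overlapped between the tissues, with 65.5, 65.5, 126 and 133 CPM in liver against 86.9, 88.9, 90.5 and 102 CPM in eWAT (0.19, SE 0.20, adjusted p = 0.431).

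The 3 succinyl-CoA ligase genes were all higher in liver of WT mice at RT. Suclg2, which makes the ligase GTP-specific, was at 325, 349, 386 and 414 CPM in liver and at 51.4, 53.7, 56.7 and 57.9 CPM in eWAT (2.85, SE 0.14, edgeR adjusted p = 2.50e-21). Suclg1, the shared alpha subunit, differed by 1.61 (SE 0.15, adjusted p = 1.48e-12), and Sucla2, the ATP-specific subunit, by 0.62 (SE 0.14, adjusted p = 2.04e-04), a difference that vanished with plain totals (0.07, adjusted p = 0.646). Sdha, the flavoprotein of succinate dehydrogenase, was at 584, 605, 616 and 640 CPM in liver and at 356, 390, 397 and 403 CPM in eWAT (0.76, SE 0.13, adjusted p = 3.52e-06). Sdhb, Sdhc and Sdhd, which encode its iron-sulfur and membrane subunits, were higher in liver by 1.26, 0.54 and 0.93, and the fumarase gene Fh1 by 1.10 (adjusted p = 9.27e-09). With plain totals Sdha (0.21, adjusted p = 0.146) and Sdhc (-0.01, adjusted p = 0.943) were not called, and Sdhb (0.71), Sdhd (0.38) and Fh1 (0.55) still were. In KO mice at RT the Sdha groups overlapped, at 491 to 542 CPM in liver and 512 to 596 CPM in eWAT (-0.01, adjusted p = 0.959).

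In the glycerol-3-phosphate shuttle, Gpd1 makes glycerol-3-phosphate from dihydroxyacetone phosphate in the cytosol and Gpd2 reoxidises it at the inner mitochondrial membrane. Gpd1 was at 555, 580, 684 and 778 CPM in liver and at 786, 799, 863 and 927 CPM in eWAT of WT mice at RT. These groups lay close together without overlapping, and the difference did not pass the test (-0.28, SE 0.22, edgeR adjusted p = 0.301) unless plain totals were used (-0.82, adjusted p = 6.33e-04). In KO mice it did, at -0.98 (SE 0.23) at each temperature (adjusted p = 2.77e-04 at RT and 2.83e-04 at TN). Gpd2 was at 60.9, 72.9, 73.4 and 79.8 CPM in liver and at 24, 29.9, 30.8 and 35.8 CPM in eWAT of WT mice at RT (1.35, SE 0.23, adjusted p = 3.04e-06). In KO mice at RT its groups overlapped, at 41.3, 52, 59.7 and 62.3 CPM in liver and 54.3, 58.5, 60.5 and 87.7 CPM in eWAT (-0.19, adjusted p = 0.51; -0.71 with plain totals, adjusted p = 0.00642).

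In eWAT at RT, 13 of the 34 genes rose and none fell in KO against WT, by 1.35-fold to 2.20-fold, against 4.34% of all 18933 genes called, and 30 of the 34 changes were positive. The median log2 change was 0.33 for the members and -0.002 for all genes. Of the 13, 12 had all 4 KO libraries above all 4 WT libraries, the exception being Sdhb. Genes already called are mostly separated in this way, so it adds no separate evidence, and the share over all genes was not counted. Gpd2 rose most, from 24, 29.9, 30.8 and 35.8 CPM in WT to 54.3, 58.5, 60.5 and 87.7 CPM in KO (1.14, SE 0.19, edgeR adjusted p = 0.00402). Suclg2 was at 51.4, 53.7, 56.7 and 57.9 CPM in WT and at 81.3, 84.8, 85.1 and 87.9 CPM in KO (0.65, SE 0.13, adjusted p = 0.00937). For both genes the lowest KO library stood well clear of the highest WT library.

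Among the PDH genes, Pdhb rose from 102, 126, 130 and 132 CPM in WT to 148, 195, 198 and 211 CPM in KO eWAT at RT (0.64, SE 0.13, edgeR adjusted p = 0.00864). Pdha1 was at 253 to 265 CPM in WT and at 320 to 397 CPM in KO (0.48, SE 0.11, adjusted p = 0.0231), and the kinase Pdk1 at 23.3 to 25.7 and 32.1 to 43.6 CPM (0.60, SE 0.11, adjusted p = 0.00728). Pdk4, at 35.5 to 56.6 CPM in WT and 18.2 to 60.8 CPM in KO, gave -0.44 (SE 0.39, adjusted p = 0.647). Within the cycle, Sdha rose from 356, 390, 397 and 403 CPM to 512, 540, 595 and 596 CPM (0.56, SE 0.10, adjusted p = 0.00619). Fh1 rose by 0.48 (SE 0.09, adjusted p = 0.00864) and Idh3b by 0.52 (SE 0.12, adjusted p = 0.0218). Sdhb was at 86.8 to 101 CPM in WT and at 100, 128, 161 and 175 CPM in KO (0.61, SE 0.15, adjusted p = 0.0295), where 1 KO library lay within the WT range. The other called genes were the cytosolic aconitase Aco1, Dlst of the oxoglutarate dehydrogenase complex, Idh3g and Mdh2, at 0.43 to 0.48. Cs, at 422 to 514 CPM in WT and 462, 480, 550 and 677 CPM in KO, gave 0.28 (SE 0.12, adjusted p = 0.203), and Idh1, Idh2, Got1, Got2 and Gpd1 were also not called.

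Without KO RT 19, the library with the highest Cs of its group, 8 of the 34 genes were called, and without KO RT 16 it was 18. Without WT RT 18, the library with epididymis transcripts, 9 were called, all higher. Idh3b was not called without KO RT 19 (adjusted p = 0.0701) or without WT RT 15 (0.0665), and Sdhb not without KO RT 10 (0.0781), KO RT 19 (0.108) or any 1 of the 4 WT libraries (0.0531 to 0.0832). In the same groups the macrophage markers (5 genes) summed to 431 to 637 CPM in KO and 586 to 849 CPM in WT eWAT, the hepatocyte markers to 2450 to 6753 CPM in KO and 1263 to 2924 CPM in WT, and the adipocyte markers to 13350 to 15858 CPM in KO and 14804 to 17081 CPM in WT. The part of these markers' cells in the higher transcripts was not tested.

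At TN none of the 34 genes was called in KO against WT eWAT with edgeR (6 at an unadjusted p under 0.05, 3 with DESeq2, all 3 higher), against 0.586% of all genes, and the median log2 change of the members was 0.07. Gpd2 came closest, at 17.8, 20.2, 22.7 and 24.8 CPM in WT and 29.2, 34.2, 40.3 and 51.2 CPM in KO (0.84, SE 0.19, edgeR adjusted p = 0.0525). These 2 groups did not overlap either. The test of the difference between the genotype effects at RT and TN called no member (12 at an unadjusted p under 0.05, 0 with DESeq2; 0% of all genes). The genotype effect in eWAT was therefore not shown to differ between housing temperatures.

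Within KO mice, 13 of the 34 genes fell in eWAT from RT to TN and none rose, against 1.74% of all genes, and the median log2 change was -0.41 for the members and 0.021 for all genes. Gpd2 fell by 0.78 (SE 0.19, edgeR adjusted p = 0.0457), Pdhb by 0.71 (SE 0.13, adjusted p = 0.0184), Idh3b by 0.57, Dlat by 0.55, Sdha by 0.54 and Fh1 and Mdh2 by 0.53 each. Suclg2 fell by 0.52 (SE 0.13, adjusted p = 0.0463) and Cs by 0.47 (SE 0.12, adjusted p = 0.0459). This comparison shares the KO RT libraries with the comparison of genotypes at RT, so the 2 are not independent. It also rested on single libraries: 0 genes were called without KO RT 19 or without KO TN 3, 2 without KO TN 21, 3 without KO TN 4, 5 without KO RT 10, 6 without KO RT 9 and 24 without KO RT 16. With only the 8 libraries compared in the fit, 0 were called. In WT eWAT, 0 genes were called between the temperatures with edgeR (4 at an unadjusted p under 0.05, 0 with DESeq2), against 0% of all genes, and the median was -0.12. The macrophage sum in eWAT was 691 to 840 CPM in KO and 928 to 1590 CPM in WT mice at TN, above the RT ranges given before. The hepatocyte sum in eWAT of KO mice went the way of the 13 genes, from 2450 to 6753 CPM at RT to 1071 to 2098 CPM at TN, without overlap. The part of both in these changes was not tested.

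In liver at TN, 9 of the 34 genes fell and none rose in KO against WT, by 1.36-fold to 1.95-fold, against 3.18% of all 17594 genes, and the median log2 change was -0.22 for the members and 0.052 for all genes. Gpd2 fell most, from 79.3, 80, 81.3 and 84.1 CPM in WT to 35.5, 35.9, 41.1 and 54.1 CPM in KO (-0.96, SE 0.15, edgeR adjusted p = 0.0026). Got2 fell from 581, 659, 791 and 804 CPM to 386, 453, 491 and 510 CPM (-0.63, SE 0.13, adjusted p = 0.0119). In both genes every KO library lay below every WT library. Pdha1 fell from 208, 214, 218 and 235 CPM to 138, 144, 147 and 151 CPM (-0.59, SE 0.11, adjusted p = 0.00658), and Sdha from 609, 668, 691 and 706 CPM to 407, 455, 482 and 490 CPM (-0.55, SE 0.11, adjusted p = 0.00948). Aco1 and Ogdh, which encodes the oxoglutarate decarboxylase, fell by 0.57 each (SE 0.11 for both, adjusted p = 0.00825 and 0.0105).

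Suclg2 fell by 0.53 (SE 0.12, edgeR adjusted p = 0.0186) and Dlst by 0.45 (SE 0.10, adjusted p = 0.0212) in the same comparison. Gpd1 was at 393, 507, 552 and 637 CPM in WT and 288, 316, 337 and 417 CPM in KO, so its groups overlapped, and its change of -0.62 was at the threshold (SE 0.17, adjusted p = 0.0492). It was not called with plain totals (adjusted p = 0.096) or without any 1 of KO TN 22, 4 and 5 and WT TN 1, 6 and 7 (0.0804 to 0.151). Suclg2 was not called without KO TN 4 (0.0714), WT TN 6 (0.0647) or WT TN 7 (0.0648). Without KO TN 4, or without WT TN 7, 6 of the 34 genes were called. Cs, at 146, 159, 188 and 198 CPM in WT and 103, 129, 133 and 142 CPM in KO, did not overlap between groups but was not called (-0.45, SE 0.14, adjusted p = 0.0776). Liver macrophage markers summed to 246 to 520 CPM in KO and 162 to 235 CPM in WT at TN, the hepatocyte markers to 75031 to 92339 and 68058 to 91053 CPM, and the part of the macrophage difference was not tested.

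At RT no member was called in KO against WT liver with edgeR (6 at an unadjusted p under 0.05, 1 lower with DESeq2), against 0.0853% of all genes, with a median of -0.06. Gpd2 was at 60.9 to 79.8 CPM in WT and 41.3 to 62.3 CPM in KO (-0.42, SE 0.15, edgeR adjusted p = 0.296). Between TN and RT, edgeR called 0 members in WT liver (3 at an unadjusted p under 0.05, 0 with DESeq2), against 0.0227% of all genes, and 0 in KO liver (7 at an unadjusted p under 0.05, 0 with DESeq2), against 0.114%. In liver, the test of genotype by temperature called 0 members (7 at an unadjusted p under 0.05, 0 with DESeq2; 0% of all genes).

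**Figure D3:**
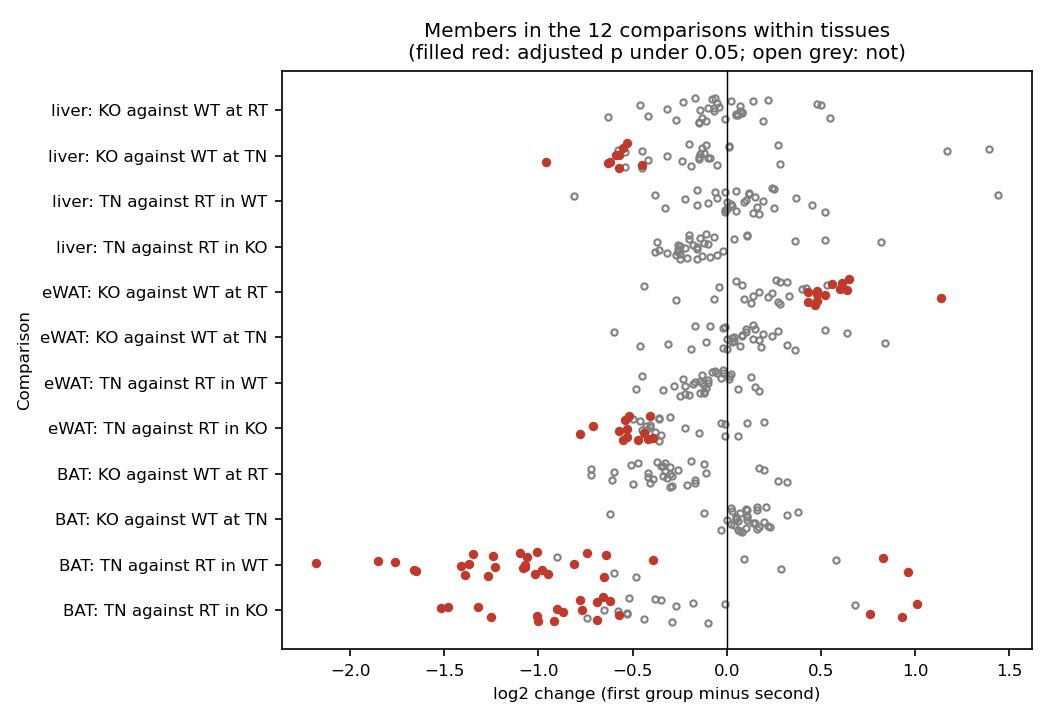
Each point is the log2 change of 1 of the 34 genes in 1 of the 12 comparisons within a tissue (rows), with filled red points for genes called at an adjusted p under 0.05. Called points are all positive for KO against WT in eWAT at RT (13 genes), all negative for KO against WT in liver at TN (9 genes), and mostly negative for TN against RT in BAT.

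Whether the effect of the deletion differed between liver and eWAT was tested directly over all 48 libraries. At RT it differed for 3 of the 34 genes, against 0.278% of all 21910 genes: Gpd2 (-1.54, SE 0.32, edgeR adjusted p = 0.0245), Suclg2 (-0.80, SE 0.18, adjusted p = 0.0451) and Sdha (-0.77, SE 0.18, adjusted p = 0.0488), where the value is the KO minus WT change in liver less that in eWAT. The median difference was -0.40 for the members and 0.038 for all genes. Sdha and Suclg2 were not called with plain totals (adjusted p = 0.0678 and 0.0512) or without a filter on low counts (0.0651 for both). When 1 library was left out, the count was 3 without eWAT KO RT 16, 2 without liver WT RT 12 or 18, 0 without eWAT KO RT 9, eWAT WT RT 13, 15 or 18 or liver KO RT 19, and 1 without any of the other 8 (eWAT KO RT 10 and 19 and WT RT 12; liver KO RT 10, 16 and 9 and WT RT 11 and 15). With the replicate number as a block none was called (Gpd2 -1.51, adjusted p = 0.181; Suclg2 -0.76, 0.25; Sdha -0.77, 0.261).

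At TN the effects differed for 6 genes, all lower in liver relative to eWAT, against 1.62% of all genes. They were Gpd2 (-1.84, SE 0.32, edgeR adjusted p = 0.00241), Pdk2 (-1.12, SE 0.23, adjusted p = 0.00689), Aco1 (-0.97, SE 0.19, adjusted p = 0.00609), Pdha1 (-0.87, SE 0.21, adjusted p = 0.0255), Sdha (-0.74, SE 0.18, adjusted p = 0.0282) and Suclg2 (-0.70, SE 0.18, adjusted p = 0.0327). Pdk2 was at 118, 125, 152 and 157 CPM in WT and 91.4, 94.1, 99.3 and 120 CPM in KO liver, and at 40.9, 42.1, 47.1 and 47.9 CPM in WT and 54.4, 59, 71.9 and 95.4 CPM in KO eWAT. Its groups overlapped in liver and not in eWAT, and neither change was called alone (adjusted p = 0.0823 and 0.127). Without any 1 of eWAT KO TN 5, eWAT WT TN 6 or 7, liver KO TN 4 or liver WT TN 6, 3 genes were called, Gpd2, Pdk2 and Aco1. Suclg2 was then not called, and neither were Pdha1 and Sdha (adjusted p = 0.0513 to 0.0813 for these 2). Pdha1 and Sdha were also lost without some other single libraries: Pdha1 without eWAT KO TN 3 (0.0516), and Sdha without liver KO TN 22 (0.0517) or liver WT TN 1 (0.0552). With the replicate block, where liver and eWAT share 2 numbers in each genotype, no gene was called. Gpd2 was then at -1.65 (adjusted p = 0.154), Pdk2 at -1.19 (0.147), Aco1 at -0.72 (0.437), Pdha1 at -0.76 (0.419) and Sdha at -0.59 (0.588).

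**Figure D4:**
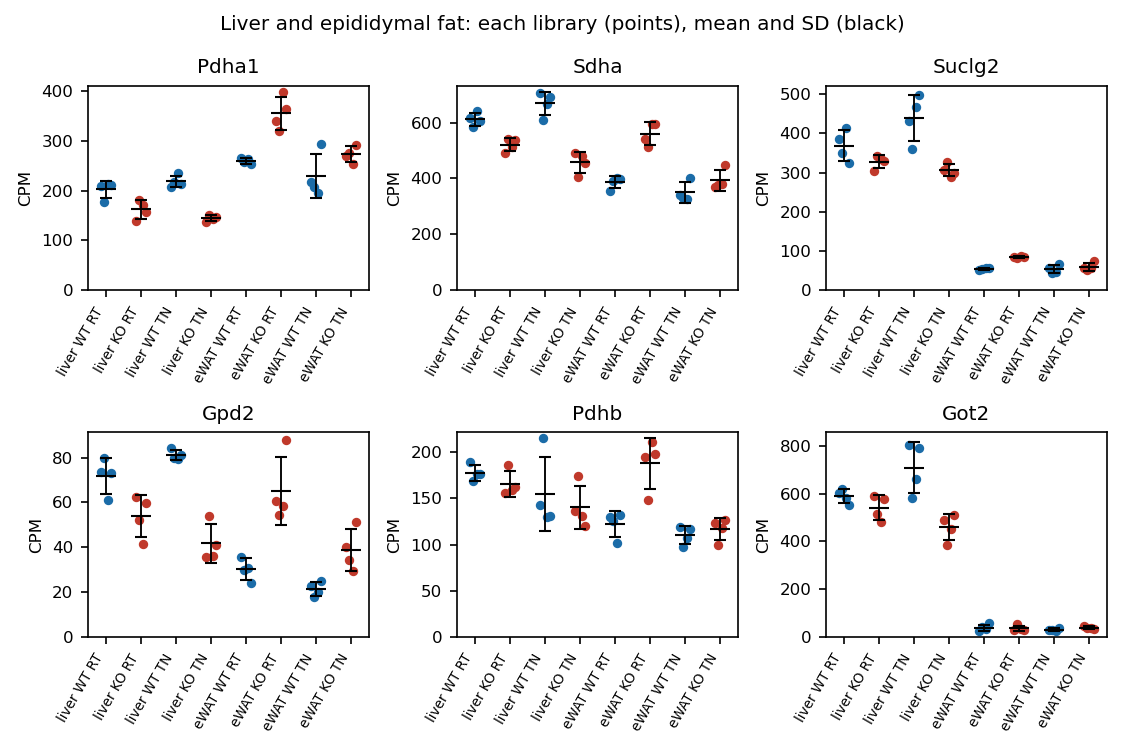
Points are the CPM (TMM-scaled over 48 libraries) of single libraries for 6 genes in the 8 groups of liver and eWAT, blue for WT and red for KO, with the group mean and SD in black; axes start at 0. In eWAT at RT the KO points of Pdha1, Sdha, Suclg2, Gpd2 and Pdhb lie above the WT points, in liver at TN those of Pdha1, Sdha, Suclg2, Gpd2 and Got2 lie below them, and Got2 is near 0 in every eWAT group.

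Housing temperature changed most of the members in brown fat. In WT mice, 26 of the 34 genes fell and 2 rose from RT to TN, against 32.5% of all 18032 genes, with a median log2 change of -1.04 for the members and 0.112 for all genes. In KO mice 16 fell and 3 rose, against 15.2% of all genes, with medians of -0.60 and 0.04. With plain library totals, which moved the median of all genes to 0.652 in WT and 0.424 in KO, 19 fell and 4 rose in WT and 7 fell and 3 rose in KO. Without the 6 BAT libraries rich in muscle transcripts, 27 fell and 1 rose in WT, and 4 fell and 1 rose in KO, where 2 libraries a group were left. Of the 19 genes called in KO, 4 were then still called: Pdhb (-1.04, adjusted p = 0.0322), Pdhx (-1.03, 0.0277), Pdk1 (-1.16, 0.00815) and Idh2 (1.05, 0.0265). Those lost included Dlat (-0.58, 0.211), Gpd1 (-0.93, 0.118), Pdp1 (1.05, 0.135), Pdha1 (-0.37, 0.499) and Sdha (-0.26, 0.651), while Got1, not called with all libraries, was called (-1.41, 0.0251). Without KO RT 19 alone, 12 were called in KO.

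Of the 34 genes, Pdhb of the PDH complex had the largest fall in both genotypes. It was at 1378, 1602, 1854 and 1980 CPM in WT at RT and at 319, 323, 339 and 588 CPM at TN, a 4.52-fold fall (-2.18, SE 0.25, edgeR adjusted p = 1.02e-05). In KO mice it was at 928, 1103, 1112 and 1373 CPM at RT and 285, 361, 423 and 560 CPM at TN (-1.52, SE 0.24, adjusted p = 4.07e-04). The groups were far apart in both genotypes. Pdhx, the subunit that anchors Dld to the complex, fell by 1.76 (SE 0.21, adjusted p = 1.81e-05) in WT and by 1.32 (SE 0.21, adjusted p = 4.10e-04) in KO mice. Pdha1 fell from 2794, 2951, 3015 and 3126 CPM to 1032, 1040, 1251 and 1461 CPM in WT (-1.37, SE 0.22, adjusted p = 1.68e-04), and from 1555, 2221, 2363 and 2765 CPM to 840, 1195, 1248 and 1654 CPM in KO, where KO RT 9 lay below KO TN 3 (-0.90, SE 0.22, adjusted p = 0.00811). Dld and Dlat fell too, by 1.39 and 1.27 in WT and 0.92 and 1.00 in KO mice.

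The kinases did not move together. Pdk1 fell from 186, 192, 201 and 205 CPM to 54.8, 55.5, 57 and 58.8 CPM in WT BAT (-1.85, SE 0.16, edgeR adjusted p = 7.29e-07) and from 114, 163, 182 and 195 CPM to 52, 61.3, 61.6 and 69.8 CPM in KO (-1.48, SE 0.16, adjusted p = 8.14e-06). Both TN groups were narrow and well below RT. Pdk4 stayed the most abundant kinase, at 1178, 1923, 1994 and 2234 CPM in WT at RT and 1533, 1676, 1755 and 3148 CPM at TN, with overlap (0.09, SE 0.26, adjusted p = 0.813). In KO mice it was at 1681 to 2359 CPM at RT and 1577 to 2673 CPM at TN (-0.01, SE 0.26, adjusted p = 0.985). Pdk2 fell by 0.39 in WT (SE 0.13, adjusted p = 0.0298), and its sign turned with plain totals (0.15, adjusted p = 0.445). The phosphatase Pdp1 rose, from a range of 4.22 to 8.35 CPM to 9.45 to 15.6 CPM in WT (0.83, SE 0.25, adjusted p = 0.0152) and from 4.05 to 6.76 CPM to 9.45 to 15.6 CPM in KO mice (1.01, SE 0.25, adjusted p = 0.00936).

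Of the TCA cycle genes, Sdhd, which encodes a membrane anchor of succinate dehydrogenase, fell by 1.35 (SE 0.21, edgeR adjusted p = 1.15e-04) in WT brown fat at TN, Sdhb by 1.24 and Idh3g by 1.23. Sdha fell from 3154, 3264, 3440 and 3497 CPM at RT to 1526, 1537, 1577 and 2021 CPM at TN (-1.06, SE 0.20, adjusted p = 5.56e-04), without overlap. In KO mice Sdha was at 1985, 2603, 2885 and 3094 CPM at RT and 1174, 1727, 1818 and 2090 CPM at TN, where 1 TN library exceeded 1 RT library (-0.69, SE 0.20, adjusted p = 0.0222). Cs fell less, from 2579, 2610, 2668 and 2683 CPM to 1506, 1540, 1723 and 2201 CPM in WT (-0.65, SE 0.20, adjusted p = 0.0174), and this call was lost with plain totals (-0.12, adjusted p = 0.601). In KO mice Cs overlapped, at 1702 to 2617 CPM and 1266 to 2279 CPM (-0.29, adjusted p = 0.381).

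The 2 NADP-dependent isocitrate dehydrogenase genes did not move together in brown fat. Idh1 fell from 313, 384, 406 and 411 CPM to 164, 203, 206 and 227 CPM in WT (-0.98, SE 0.17, edgeR adjusted p = 3.49e-04; -0.41 with plain totals, adjusted p = 0.0591). Idh2 was at 290, 348, 444 and 455 CPM at RT and 399, 465, 481 and 617 CPM at TN in WT, with overlap (0.29, SE 0.18, adjusted p = 0.227). In KO mice it rose, from 286, 296, 325 and 332 CPM to 433, 549, 552 and 643 CPM (0.76, SE 0.18, adjusted p = 0.00845), while Idh1 fell (-0.57, SE 0.17, adjusted p = 0.0302). For Idh2 this left every TN library above every RT library, and the Idh1 groups overlapped.

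In the shuttles, Gpd1 fell from 7151, 8796, 8888 and 10374 CPM to 1784, 2206, 3014 and 4693 CPM in WT (-1.65, SE 0.30, edgeR adjusted p = 5.13e-04) and by 1.25 in KO mice (SE 0.30, adjusted p = 0.00811). Gpd2 fell from 1241, 1418, 1526 and 1655 CPM to 373, 382, 513 and 656 CPM in WT (-1.66, SE 0.29, adjusted p = 3.17e-04). In KO mice its groups overlapped, at 650, 952, 1070 and 1166 CPM and 267, 426, 481 and 797 CPM (-1.01, SE 0.28, adjusted p = 0.02). That call was lost with plain totals (adjusted p = 0.0979), without the 4 muscle-rich KO libraries (-0.32, adjusted p = 0.633) and without any 1 of KO RT 14 and 19 and KO TN 2, 4 and 5 (0.0528 to 0.0667). The cytosolic malate dehydrogenase gene Mdh1 fell by 1.41 in WT (SE 0.21, adjusted p = 9.60e-05).

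Got2 went against the other shuttle genes. It rose from 14.4, 25.3, 28 and 29.4 CPM at RT to 37.5, 41.8, 47.3 and 69.6 CPM at TN in WT brown fat (0.96, SE 0.27, edgeR adjusted p = 0.0132). In KO mice it rose from 22.6, 24.5, 27.9 and 41.7 CPM to 42.7, 44.5, 57.3 and 88.6 CPM (0.93, SE 0.27, adjusted p = 0.0296), the highest value being in KO TN 2, the library with the largest muscle sum (8001 CPM). Without the muscle-rich libraries the KO change was 0.80 (adjusted p = 0.113), and it was also lost without any 1 of KO RT 10, 19 and 9 and KO TN 2 and 5 (0.057 to 0.107). Got1 overlapped, at 18.5 to 36.9 CPM and 10.4 to 35.9 CPM in WT (-0.60, SE 0.45, adjusted p = 0.337). Over both genotypes, from RT to TN, the sum of the 5 brown adipocyte markers went from 6431 to 10869 CPM to 2269 to 6242 CPM, and that of the 5 macrophage markers from 33.7 to 88.7 CPM to 139 to 385 CPM. The part of these cells in the members' changes was not tested.

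**Figure D5:**
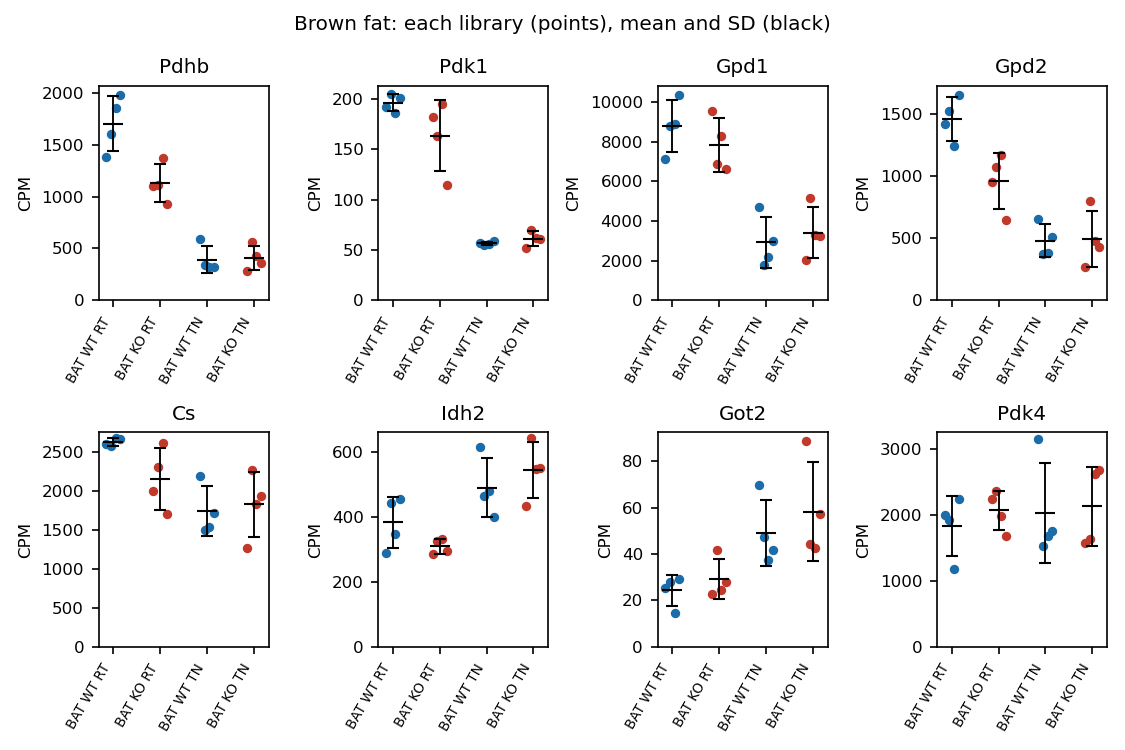
Points are the CPM (TMM-scaled over 48 libraries) of single BAT libraries for 8 genes at RT and TN, blue for WT and red for KO, with the group mean and SD in black; axes start at 0. The means of Pdhb, Pdk1, Gpd1 and Gpd2 are lower at TN than at RT in both genotypes, that of Got2 is higher, and Pdk4 overlaps throughout.

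Pdk1 and Pdhx fell together with Pdhb in brown fat. Ogdh, of the same enzyme class as PDH, fell less, by 0.81 in WT (SE 0.22, edgeR adjusted p = 0.00958). The sequence upstream of Pdhb is not printed. As examples, the sequences just upstream of the other 3 genes are shown. They are the 250 bases before a RefSeq transcript start, the first of 2 listed for Pdk1 and of 6 for Ogdh and the 1 listed for Pdhx, 5′ to 3′ on the gene's strand, in build GRCm38.p6, at chr2:71872974-71873223 (plus strand) for Pdk1, chr2:103073514-103073763 (minus strand) for Pdhx and chr11:6291347-6291596 (plus strand) for Ogdh. Capitals mark the cAMP response element TGACGTCA, which begins 51 bases before this start in Ogdh (60 and 113 bases before the next 2 starts).

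Pdk1: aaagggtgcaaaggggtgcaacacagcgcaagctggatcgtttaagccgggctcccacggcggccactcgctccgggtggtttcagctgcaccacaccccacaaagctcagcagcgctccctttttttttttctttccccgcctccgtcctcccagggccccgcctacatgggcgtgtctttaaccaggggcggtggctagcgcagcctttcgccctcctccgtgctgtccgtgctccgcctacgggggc

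Pdhx: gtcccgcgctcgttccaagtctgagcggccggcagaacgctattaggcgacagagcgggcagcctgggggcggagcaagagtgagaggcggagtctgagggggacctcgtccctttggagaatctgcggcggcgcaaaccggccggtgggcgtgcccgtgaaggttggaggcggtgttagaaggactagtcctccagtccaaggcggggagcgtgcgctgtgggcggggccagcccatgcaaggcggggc

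Ogdh: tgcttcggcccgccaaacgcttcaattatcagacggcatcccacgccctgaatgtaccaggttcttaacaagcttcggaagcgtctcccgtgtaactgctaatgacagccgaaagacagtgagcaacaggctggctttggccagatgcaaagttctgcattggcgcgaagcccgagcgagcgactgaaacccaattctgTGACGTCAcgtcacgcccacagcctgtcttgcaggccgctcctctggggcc

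Windows of 300 bases (250 before to 50 after the start) were at hand for 30 of the 34 genes and not for Idh3a, Sdhc, Pdp1 and Gpd1. Both strands were searched for 5 motifs, and few windows held any. TGACGTCA was found for Ogdh and Mdh2, 2 of 30 genes, against 2.03% of 27025 genes with a window. The estrogen-related receptor element TCAAGGTCA was found for Sdhd, against 0.466% of genes, and its looser form TNAAGGTCA, which includes the same site, also only there, against 1.43%. The core of the NRF1 palindrome, GCGCATGCG, was found for Ogdh, in the windows of 2 later starts that are not printed (1.95% of genes), and the ETS element CCGGAAGT for Dlst (4.31%). No Pdk1, Pdhx or Pdhb window held any of the 5.

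No member was called between KO and WT brown fat. At RT edgeR called 0 (8 at an unadjusted p under 0.05, 1 lower with DESeq2), against 0.0887% of all genes. The median was -0.32, against 0.004 for all genes, and 30 of the 34 changes were negative. Pdhb, at 1378 to 1980 CPM in WT and 928 to 1373 CPM in KO, gave -0.60 (SE 0.24, adjusted p = 0.189). Without WT RT 12, 2 members were called, both lower. At TN edgeR called 0 (1 at an unadjusted p under 0.05, 0 with DESeq2), against 0% of all genes, with a median of 0.10. The interaction of genotype and temperature called 0 members in BAT (3 at an unadjusted p under 0.05, 0 with DESeq2; 0% of all genes), so the smaller number of calls in KO mice is not shown to be a smaller effect.

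The effect of temperature in WT mice was tested for a difference between BAT and eWAT. It differed for 25 of the 34 genes, 24 of them lower in BAT relative to eWAT, against 13.9% of all 21910 genes, and the median difference was -0.87 for the members and 0.167 for all genes. The largest were Pdhb (-2.03, SE 0.27, edgeR adjusted p = 2.45e-06), Pdk1 (-1.86, SE 0.24), Gpd1 (-1.70, SE 0.32), Pdhx (-1.65, SE 0.23) and Sdhd (-1.32, SE 0.24). Got2 was the 1 gene in the other direction (1.30, SE 0.31, adjusted p = 0.00347), and it was not called without the marker-rich libraries (0.82, adjusted p = 0.0565) or with the replicate block (1.09, 0.0835). With plain totals 13 genes were called, 12 of them lower, and with the replicate block 14, all lower.

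Brown fat held more of nearly every member than the other tissues. Against eWAT of WT mice, 32 of 34 genes were called at RT (30 higher in BAT, 2 lower; 41.8% of all genes), with a median of 3.11 against -0.078 for all genes. At TN it was 31 (29 higher, 2 lower; 34.4% of all genes), with a median of 2.01. Gpd2 differed most at RT (5.71, SE 0.28, edgeR adjusted p = 6.36e-21), at 1241 to 1655 CPM in BAT and 24 to 35.8 CPM in eWAT, followed by Pdk4 (5.38), Suclg1 (4.36), Sucla2 (4.23) and Sdhb (3.92). Pdk3 (-2.76, adjusted p = 5.49e-04) and Got2 (-0.54, adjusted p = 0.0453) were lower. The Got2 groups overlapped and its call was lost with only the 8 libraries in the fit (0.094), without the marker-rich libraries (0.0967), with the replicate block (-0.31, 0.359) and without any 1 of BAT WT RT 12 and 17 and eWAT WT RT 13 and 18 (0.0682 to 0.284). At TN Pdk4 (5.35), Gpd2 (4.54), Sucla2 (3.58), Suclg1 (3.32) and Idh3b (3.03) led, and Pdk3 (-2.14) and Idh1 (-0.41) were lower in BAT. Pdk3 was not called without the marker-rich libraries (adjusted p = 0.0894), nor Idh1 without BAT WT TN 1 (0.0555).

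Against liver of WT mice at RT, 28 members were higher in BAT and 4 lower (53.3% of all genes called). The 4 were Got2 (4.59 higher in liver, SE 0.26, edgeR adjusted p = 2.38e-19), Got1 (2.18), Suclg2 (0.78) and Idh1 (0.37, lost without BAT WT RT 12, adjusted p = 0.0698). On the liver minus BAT scale Pdk4 stood at -8.14 (SE 0.58, adjusted p = 5.75e-15), Idh3a at -5.51, Gpd2 at -4.36, Idh3g at -4.27 and Cs at -4.09. Pdk4 was at 2.17 to 10.3 CPM in liver and 1178 to 2234 CPM in BAT.

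A list of 39 other genes of the pathway was examined beside the members, 38 of them usable because Nnt, the mitochondrial transhydrogenase, has 2 identifiers. In eWAT at RT, 4 of 38 rose and 1 fell in KO mice, against 4.34% of all genes called. Those that rose included the alanine aminotransferase Gpt2 (0.60) and the pyruvate carrier subunit Mpc1 (0.48), and the oxoglutarate dehydrogenase-like gene Ogdhl fell (-2.02, from 2.30 to 4.28 CPM to 0.493 to 1.71 CPM). In liver at TN, 4 of 36 fell in KO mice and none rose, against 3.18% of all genes called. Pcx, the pyruvate carboxylase that refills the cycle with oxaloacetate, fell from 885 to 954 CPM in WT to 472 to 553 CPM in KO (-0.83, SE 0.11, edgeR adjusted p = 0.00113), and the dicarboxylate carrier Slc25a10 (-0.66) and Gpt2 (-0.52) were also among the 4. The genotype effect at TN differed between liver and eWAT for Pcx (-1.09, adjusted p = 0.0024).

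In brown fat at TN, 22 of the 38 fell and 4 rose in WT mice, against 32.5% of all genes called. In KO mice 11 fell and 3 rose, against 15.2% of all genes. The ATP citrate lyase Acly (-3.32), the malic enzyme Me1 (-3.00), the acetyl-CoA synthetase Acss2 (-2.76), the citrate carrier Slc25a1 (-2.48) and, upward, the aspartate-glutamate carrier Slc25a12 (2.36) changed most in WT mice. Slc25a12 was at 24.1 and 25 CPM in WT TN 24 and 6, both rich in muscle transcripts, and at 5.95 and 6.38 CPM in the other 2 TN libraries, against 2.01 to 3.97 CPM at RT, and the part of muscle in this change was not tested. In KO mice Me1 (-2.97), Acly (-2.75), Acss2 (-2.64), Slc25a1 (-2.11) and the pyruvate carrier subunit Mpc2 (-2.07) led. In eWAT of KO mice 4 of 38 fell and 1 rose from RT to TN, against 1.74% of all genes called. They were Ogdhl (2.07), Slc25a1 (-0.81), Mpc1 (-0.67), Slc25a22 (-0.53) and Slc25a11 (-0.45). With edgeR, none of the list was called in the other comparisons within a tissue (4 to 12 at an unadjusted p under 0.05 in each), against at most 0.586% of all genes.

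Between liver and eWAT of WT mice at RT, 27 of the 38 were called, 14 higher and 13 lower in liver, against 54.1% of all genes called. The liver glutaminase Gls2 (6.36) and the aspartate-glutamate carrier Slc25a13 (5.92), a partner of Got1 and Got2 in the malate-aspartate shuttle, were higher. Slc25a13 averaged 277 CPM in liver and 4.94 CPM in eWAT. In eWAT it was at 0.992 and 1.21 CPM in WT RT 12 and 15 and at 7.77 and 9.79 CPM in WT RT 13 and 18. Gls2 was at 0.406 and 0.352 CPM and at 6.21 and 6.19 CPM in the same libraries. Their hepatocyte marker sums were 1402 and 1263 CPM and 2924 and 2640 CPM. In the other eWAT groups the sum and these genes did not always go together. KO RT 16, with the highest sum (6753 CPM), had Gls2 at 8.02 CPM and Slc25a13 at 16.3 CPM. KO RT 9, with a sum of 2450 CPM, had them at 0.427 and 0.988 CPM. WT TN 8, with a lower sum of 1841 CPM, had them at 7.35 and 6.12 CPM. The part of hepatocyte transcripts in these eWAT values was not tested. Acss1 (-5.99) and Me3 (-5.70) were lower, and Ogdhl had no counts in the 4 liver libraries.

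Of 11 regulators of mitochondrial genes, 10 could be tested in eWAT, and 2 rose in KO mice at RT, against 4.34% of all genes called. Ppargc1a, a coactivator of mitochondrial biogenesis, was at 2.75, 2.87, 2.87 and 3.61 CPM in WT and 5.34, 5.52, 7.72 and 10.6 CPM in KO (1.30, SE 0.31, edgeR adjusted p = 0.023). Esrra, the estrogen-related receptor that works with it, was at 26.4 to 34.8 CPM and 34.4 to 44.5 CPM, with a slight overlap (0.44, SE 0.12, adjusted p = 0.046), and fell again in KO mice at TN (-0.48, adjusted p = 0.0493). In brown fat at TN, 3 of the 11 regulators were called in WT mice, all lower, against 32.5% of all genes. The list was thus not called more often than genes at large. Esrra fell from 144 to 156 CPM to 71.8 to 96.2 CPM in WT (-0.87, SE 0.15, adjusted p = 4.05e-04), with the mitochondrial transcription factor Tfam (-0.81) and Gabpa (-0.68). Hif1a was the 1 regulator of 11 called in brown fat of KO mice (-0.63, adjusted p = 0.0174), against 15.2% of all genes. No regulator was called in liver between genotypes or temperatures with edgeR (0 to 3 at an unadjusted p under 0.05), against 0.0227% to 3.18% of all genes. At such shares, no call among 11 genes does not set the list apart from genes at large.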

How the data were processed

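RNA of 48 libraries (Maxwell RSC simplyRNA extraction, NEBNext Ultra libraries, paired-end NovaSeq sequencing, per the labels' protocols) was counted per gene, and the authors deposited raw read counts per Ensembl identifier, 1 file per library. The submitters' processing notes name fastp, STAR 2.6.1d and featureCounts 1.5.0-p3 and the builds GRCm38 and mm10. The strand setting and the annotation release are not given in the sources used here, so reads of overlapping antisense genes cannot be told apart. Exon lengths came from GENCODE M21. Symbols came from a separate list of gene names, which named 52073 of 56748 identifiers (91.8%).

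The counts were analysed with edgeR 4.0.16 in R 4.3.3 (filterByExpr with a minimum count of 10, TMM scaling, quasi-likelihood test, Benjamini-Hochberg threshold 0.05). Each tissue was fitted alone (16 libraries, 4 groups). Comparisons between tissues used all 48 libraries in 12 groups and treated them as independent, since the labels do not state whether a replicate number marks the same animal across tissues. Each number occurs in 1 combination of genotype and housing, so it may mark a mouse, and the fit with the number as a block is given beside the results it changes. Fits were also run on simulated counts, with the same relative spread for every gene and larger changes than most of those called within eWAT and liver. That check does not cover the smaller changes. CPM per kb divides by exon length, and marker sums use plain library totals. Total counts are given in the report by tissue, and at these depths counting error is small beside the spread between libraries except for genes near 1 CPM such as Pdk3 and Pdp1 in liver.

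All 34 genes are accounted for. Of them, 10 were to be given per library in every tissue, and in each comparison the called genes with the largest changes were named (up to 8 within a tissue, up to 5 in each direction between tissues), as were up to 5 of each further list. Some genes of the further lists are counted but not reported here by name. The members, the lists (39 other pathway genes, 11 regulators, 8 marker lists) and the motifs were chosen with earlier results of these data known. The alternatives were DESeq2 1.42.0, RLE scaling, no filter, only the libraries compared, a replicate block, and each library left out in turn. Another 2, plain library totals and leaving out the 6 muscle-rich BAT libraries and the epididymis-bearing eWAT library, were chosen after seeing the data.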

Additional observations from a re-analysis of the deposited data

Results flagged for a closer look

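Within groups of 4 libraries, 1 library stood apart from the other 3 by Dixon's criterion in 32 of 408 combinations of gene and group, where chance alone gives about 1 in 20. Of these, 9 came from BAT WT TN 24, a library rich in muscle transcripts, and 3 from eWAT WT TN 8. Among the genes given per library, BAT WT TN 24 was apart for Sdha (2021 CPM) and Pdk4 (3148 CPM), and eWAT WT TN 8 for Idh2 (144 CPM) and Got2 (38.7 CPM), each the highest of its group. Idh1 in BAT KO TN 3 (273 CPM) and Sdha in eWAT KO TN 5 (449 CPM) were also the highest of their groups, and Pdha1 in liver WT RT 12 (177 CPM) was the lowest.

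The genotype effect differed between liver and eWAT, by the interaction test of edgeR, for Gpd2 (a log2 difference of -1.54, liver minus eWAT), Suclg2 (-0.80) and Sdha (-0.77) at RT. At TN it differed for Gpd2 (-1.84), Pdk2 (-1.12), Aco1 (-0.97), Pdha1 (-0.87), Sdha (-0.74) and Suclg2 (-0.70). These calls were not stable: with the replicate number as a block, 0 members were called at either temperature. At RT, leaving out 1 library lost the call of Sdha in 15 fits and that of Suclg2 in 13. The temperature effect in WT mice differed between BAT and eWAT for Got2 (a log2 difference of 1.30, BAT minus eWAT), Pdhb (-2.03), Pdk1 (-1.86), Gpd1 (-1.70), Pdhx (-1.65) and Sdhd (-1.32), among others. Of these, Got2 was not called with the replicate block (edgeR adjusted p = 0.0835) or without the marker-rich libraries (0.0565).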

How the results depend on the processing

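With plain library totals the sign turned for called members: Pdk2 (TN against RT, WT BAT), Idh1 (BAT against eWAT, WT RT) and, between liver and eWAT, Sdhc, Sucla2, Mdh1, Idh2 and Dlst. No called member turned with DESeq2, RLE scaling, the replicate block or without the marker-rich libraries. In the direct comparisons of tissues, the counts of members called stayed within 1.5 times the reported ones. Their split by direction did not: with plain totals, liver against eWAT in KO mice at RT went from 14 higher and 12 lower to 6 and 19. DESeq2 called 1 member in KO against WT liver at RT, 1 in KO against WT BAT at RT, 3 in KO against WT eWAT at TN, 24 between TN and RT in KO eWAT and 6 for the genotype effect at RT between liver and eWAT. KO against WT eWAT at TN gave 1 with RLE scaling, 1 without a filter on low counts and 1 without the marker-rich libraries. For TN against RT in KO BAT, 5 were called without the marker-rich libraries and 10 with plain totals. For TN against RT in KO eWAT, 0 were called with only the 8 libraries compared and 8 with plain totals. The genotype effect at RT gave 1 without a filter and 1 with plain totals, and the temperature effect (BAT against eWAT) 13 with plain totals. The cause of these shifts was not tested.

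With 1 library left out, the counts ranged from 0 to 2 (KO against WT BAT at RT), 12 to 19 (TN against RT, KO BAT), 8 to 18 (KO against WT eWAT at RT), 0 to 1 (KO against WT eWAT at TN), 0 to 24 (TN against RT, KO eWAT), 0 to 3 (genotype effect at RT) and 3 to 6 (genotype effect at TN).

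Replicate numbers recur across tissues. Libraries of the same number did not deviate together: correlations ran from -0.24 to 0.127 between BAT and eWAT, -0.05 to 0.03 between BAT and liver and -0.05 to 0.039 between eWAT and liver. With the number as a replicate block, 0 members were called for the genotype effect at RT, 0 at TN and 14 for the temperature effect.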
